A study of Homo sapiens with 22 samples.

Results

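The accessible chromatin of PC3 was compared with that of NCI-H660, from 1 list of ATAC-seq regions for each prostate cancer cell line. The members were the 310919 regions of these 2 lists, of 871377 regions in the 22 lists of the series, 210960 from PC3 and 99959 from NCI-H660. A region was called shared where it overlapped a region of the other list by at least 1 bp, and line-only otherwise, so that PC3 had 165584 PC3-only and 45376 shared regions and NCI-H660 had 58754 NCI-H660-only and 41205 shared regions. Regions within 1000 bp of the transcription start site (TSS) of a protein-coding gene were called promoter regions and all others distal. The series asked how the forkhead factor FOXA2 and AP-1 act in prostate cancer cells that no longer depend on androgens.

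PC3 is a line from a bone metastasis that lacks neuroendocrine features, and NCI-H660 is a line of neuroendocrine prostate cancer. Both samples are labelled vehicle, the control of a drug treatment of 4 h, and neither carries a transgene or a knockdown in its label, although both deposited names also carry a control siRNA. PC3 was grown in RPMI medium with 10% serum. NCI-H660 was grown with 5% serum, to which hydrocortisone and β-estradiol (both at 10 nM) and a supplement of insulin, transferrin and selenium (1%) had been added, so medium and line cannot be told apart. The region names also place the 2 lists in different processing folders, so processing and line cannot be told apart either. With 1 list a line there was no replicate and no test between the lines. The intervals given with shares are 95% Wilson intervals (Newcombe intervals for differences) and cover counting error only, since neighbouring regions are not independent and the number of reads behind each list is unknown. In a bulk culture, a site open in few cells cannot be told apart from one weakly open in all cells.

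ATAC-seq marks DNA that a transposase can reach, which in most cells means promoters together with enhancers and insulators held free of nucleosomes by bound factors. Promoters of widely used genes are open in most cell types, while distal enhancers differ between lineages and carry the motifs of the factors that open them. FOXA2 belongs to the forkhead pioneer factors, which can bind DNA in closed chromatin, and AP-1, a dimer of JUN and FOS family proteins such as JUN and FOSL1, opens enhancers in mesenchymal and stem-like cells. Neuroendocrine identity is set by factors such as NEUROD1, INSM1 and NKX2-1.

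The sequences below show what the motif counts are made of, with the AP-1 word TGACTCA and the forkhead words TGTTTAC or TGTTTGC (either strand) in capitals. Each is the central base of a line-only distal region with 100 bases on either side, on hg19, plus strand, 5′ to 3′. The first 4 were the highest-scoring line-only distal regions holding an AP-1 or a forkhead word in each line, leaving out 1 chromosome whose sequence is not shown and regions with 20-base words of the mitochondrial genome, and the last 3 were the highest-scoring line-only distal regions of listed genes, chosen after their values were seen because they hold such words.
PC3-only, intron of ZCCHC24, chr10:81200534-81200734: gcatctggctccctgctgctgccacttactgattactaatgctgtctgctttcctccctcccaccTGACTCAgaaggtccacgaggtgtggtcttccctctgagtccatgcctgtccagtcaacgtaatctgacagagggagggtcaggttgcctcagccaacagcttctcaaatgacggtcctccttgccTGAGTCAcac
PC3-only, in ZMIZ1 and nearest to the TSS of PPIF, chr10:81058554-81058754: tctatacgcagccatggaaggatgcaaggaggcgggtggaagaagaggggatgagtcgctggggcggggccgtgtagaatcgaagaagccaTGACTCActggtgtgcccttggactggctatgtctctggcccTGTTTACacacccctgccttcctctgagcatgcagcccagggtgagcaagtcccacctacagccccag
NCI-H660-only, intron of BMPER, chr7:34059210-34059410: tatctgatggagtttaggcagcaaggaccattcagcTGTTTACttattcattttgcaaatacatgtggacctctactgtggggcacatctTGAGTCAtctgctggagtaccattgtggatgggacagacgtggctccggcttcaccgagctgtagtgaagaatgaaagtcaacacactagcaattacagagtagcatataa
NCI-H660-only, intergenic, nearest to the TSS of CENPW, chr6:127018300-127018500: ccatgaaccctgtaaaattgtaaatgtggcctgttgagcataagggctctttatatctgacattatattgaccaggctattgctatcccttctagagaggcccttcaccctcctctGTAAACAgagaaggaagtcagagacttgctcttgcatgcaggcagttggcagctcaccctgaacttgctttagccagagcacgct
NCI-H660-only, nearest to NCAM1, chr11:112676632-112676832: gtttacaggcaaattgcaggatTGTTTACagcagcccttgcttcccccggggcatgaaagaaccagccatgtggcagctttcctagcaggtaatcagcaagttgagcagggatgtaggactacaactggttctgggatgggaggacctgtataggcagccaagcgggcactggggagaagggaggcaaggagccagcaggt
NCI-H660-only, nearest to MAF, chr16:79690619-79690819: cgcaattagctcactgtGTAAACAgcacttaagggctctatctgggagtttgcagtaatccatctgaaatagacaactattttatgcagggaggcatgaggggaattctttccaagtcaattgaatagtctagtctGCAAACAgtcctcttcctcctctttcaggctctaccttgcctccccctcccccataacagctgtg
NCI-H660-only, nearest to SST, chr3:187390430-187390630: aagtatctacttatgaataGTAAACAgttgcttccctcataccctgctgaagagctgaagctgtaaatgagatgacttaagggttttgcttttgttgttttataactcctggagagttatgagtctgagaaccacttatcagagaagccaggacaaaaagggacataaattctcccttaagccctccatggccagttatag

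The ZCCHC24 region holds 2 AP-1 words, had a score of 17382 in the peak caller's output for PC3 (rank 69 of its list), overlapped the JUN and FOSL1 lists of PC3 and lay 1251 bp from the nearest NCI-H660 region. The region in ZMIZ1 holds 1 AP-1 and 1 forkhead word, scored 13723 and overlapped the PC3 lists of JUN, FOSL1, FOXA2 and H3K27ac. In NCI-H660, the CENPW region scored 4246 (rank 125) and overlapped the FOXA2, JUN and H3K4me2 lists of that line, and its nearest PC3 region lay 22963 bp away. The BMPER region, the highest of that line with an AP-1 word by the same choice, scored 3404 and holds a forkhead word as well. None of these 4 regions overlapped a FOXA2, JUN or histone mark list of the other line.

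Promoters were largely common to both lines and distal regions were largely not. Of PC3 promoter regions 73.5% (72.9 to 74.0) overlapped an NCI-H660 region, against 15.6% (15.4 to 15.7) of PC3 distal regions. In NCI-H660 the shares were 83.4% (82.8 to 84.0) and 32.9% (32.5 to 33.2). Distal sites made up 96.5% of PC3-only regions (159827 of 165584) and 95.3% of NCI-H660-only regions (56015 of 58754), but 64.9% and 66.6% of shared regions. About as many line-only regions were intronic in PC3 (42.3%) as in NCI-H660 (42.6%), and the shares outside any protein-coding gene were 49.1% and 48.1%.

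**Figure D1:**
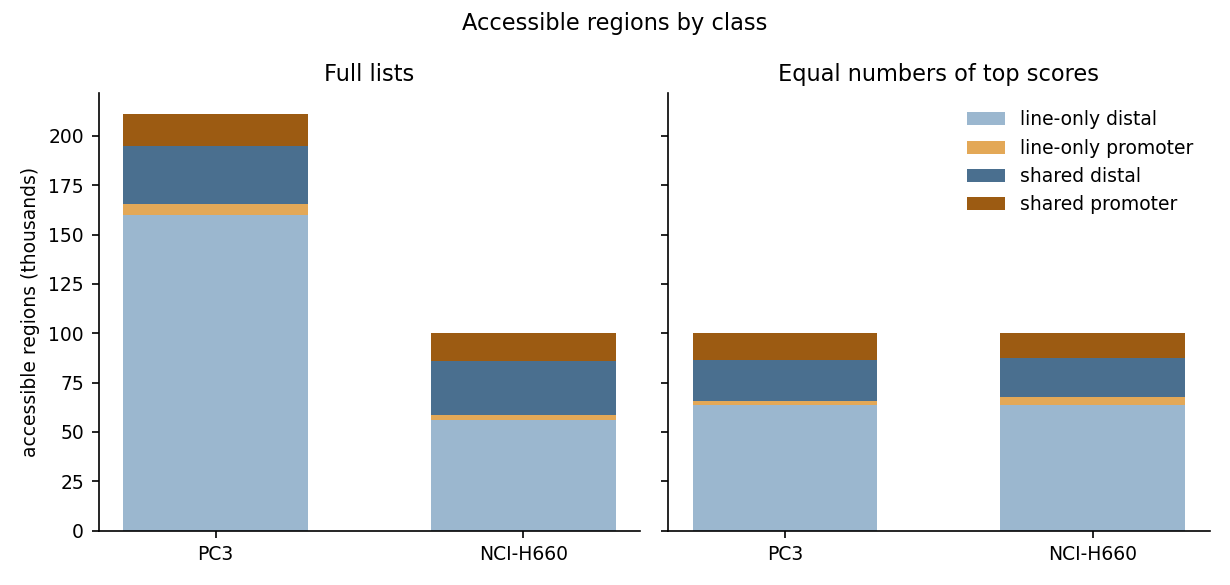
Number of accessible regions in PC3 and NCI-H660, stacked by class, for the full lists (left) and for the 99959 highest-scoring regions of each line (right). Line-only distal regions are the largest class in every bar, 159827 in PC3 and 56015 in NCI-H660 on the left.

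The overall overlap depended on the length of the lists and the width of their regions. Over the full lists 21.5% (21.3 to 21.7) of PC3 regions and 41.2% (40.9 to 41.5) of NCI-H660 regions were shared, and these shares came together at 34.0% and 32.2% with the 99959 highest scores of each line. The PC3 list held 2.11 times as many regions, but they were narrower, with a median width of 221 bp against 530 bp. Both lists covered almost the same length, 64.4 Mb in PC3 and 64.0 Mb in NCI-H660, and 20.3 Mb was common to both, 31.5% of the bases of PC3 and 31.7% of those of NCI-H660. Among regions of 200 to 400 bp the shares that overlapped a region of this width in the other list were 5.50% and 13.9%. A PC3-only region lay a median of 9910 bp from the nearest NCI-H660 region, and 3.83% of them lay within 500 bp of one.

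Higher-scoring regions were more often shared in both lines. In the top decile of the PC3 list by score 61.9% (61.2 to 62.5) of regions were shared, and in the bottom decile 6.01% (5.69 to 6.33). The share fell more slowly in NCI-H660, from 60.7% (59.8 to 61.7) to 26.4% (25.6 to 27.3). Promoter regions also became fewer over these deciles, from 37.7% to 4.24% in PC3 and from 32.9% to 6.21% in NCI-H660. Median width fell from 589 to 149 bp and from 940 to 242 bp. The part of promoters and width in the fall of the shared share was not tested. Of the 1000 highest scores 80.7% in PC3 and 65.0% in NCI-H660 met a region of the other full list. Against only the 1000 highest of the other line the shares were 17.7% and 17.1%, a shorter target that cannot be set beside the shares above. By this measure 7.63% (5.88 to 9.84) of NCI-H660 distal regions and 38.7% (33.4 to 44.3) of its promoter regions met one of the PC3 top 1000.

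**Figure D2:**
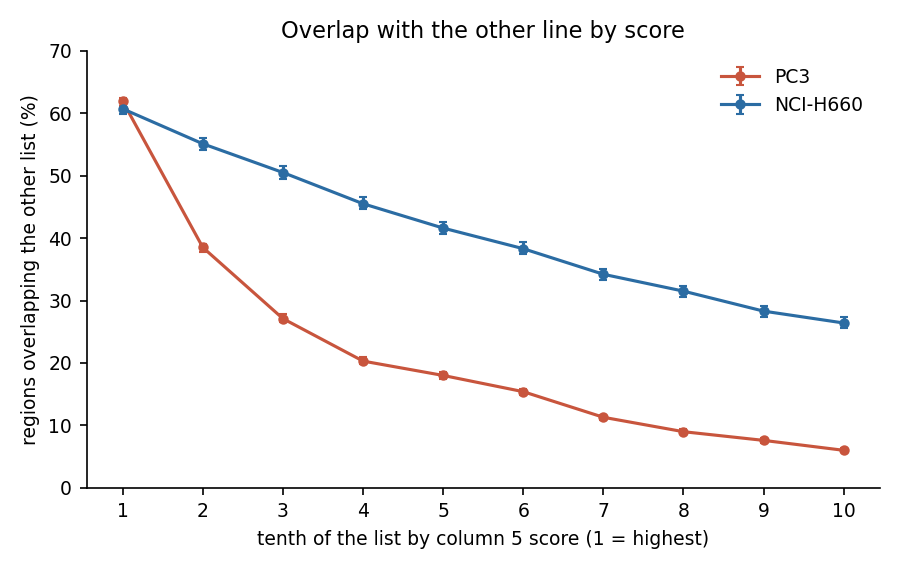
Share of regions (%) that overlap the other line's full list, for each decile of the PC3 and NCI-H660 lists ordered by the deposited score (1 is the highest decile), with 95% Wilson intervals. Both lines start near 61%, and PC3 falls to 6.01% while NCI-H660 falls to 26.4%.

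AP-1 words separated the 2 sets of line-only distal regions. TGACTCA lay within 100 bp of the centre in 18.8% of PC3-only distal regions and in 3.99% (3.83 to 4.15) of NCI-H660-only ones, a difference of 14.8 percentage points (14.6 to 15.1). Windows 2000 bp away held the word in 3.15% and 3.31%, so the share in NCI-H660-only regions was close to that of the DNA around them. Shared distal regions lay between, at 14.4% when centred on the PC3 region and 10.2% when centred on the NCI-H660 region. At promoters PC3-only regions were again highest, at 14.4% (13.5 to 15.3), while shared regions (2.95% centred on PC3 and 1.99% on NCI-H660) did not lie between them and the 2.45% (1.93 to 3.10) of NCI-H660-only regions.

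Forkhead words had the opposite order with a smaller difference. TGTTTAC or TGTTTGC lay in 9.83% (9.69 to 9.98) of PC3-only distal regions and 16.2% (15.9 to 16.5) of NCI-H660-only ones, against 6.07% and 6.08% in windows 2000 bp away. Shared distal regions held them in 15.4% (PC3) and 14.9% (NCI-H660), close to NCI-H660-only regions. Both words occurred in the same window in 1.9% (1.83 to 1.97) of PC3-only and 0.523% (0.467 to 0.586) of NCI-H660-only distal regions.

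Other words gave smaller differences. The E-box CAGCTG, a word of basic helix-loop-helix factors, lay in 12.1% of PC3-only and 16.0% (15.7 to 16.3) of NCI-H660-only distal regions (7.77% and 7.71% nearby). CAGATG, the E-box that NEUROD1 prefers, lay in 16.1% and 18.0%. GGAATGT, the word of the Hippo pathway factors TEAD, lay in 4.27% (4.17 to 4.37) of PC3-only regions and in 2.81% (2.67 to 2.95) of NCI-H660-only ones, the latter equal to the 2.83% nearby. AACCNGTT, the word of the epithelial GRHL factors, was the reverse, at 1.20% and 2.39% (2.26 to 2.52). AGNNGGCNC, part of the motif of the insulator protein CTCF, lay in 10.3% and 10.4% of line-only regions and in 17.6% and 16.0% of shared ones, so it was more frequent in shared regions and alike in both line-only sets.

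**Figure D3:**
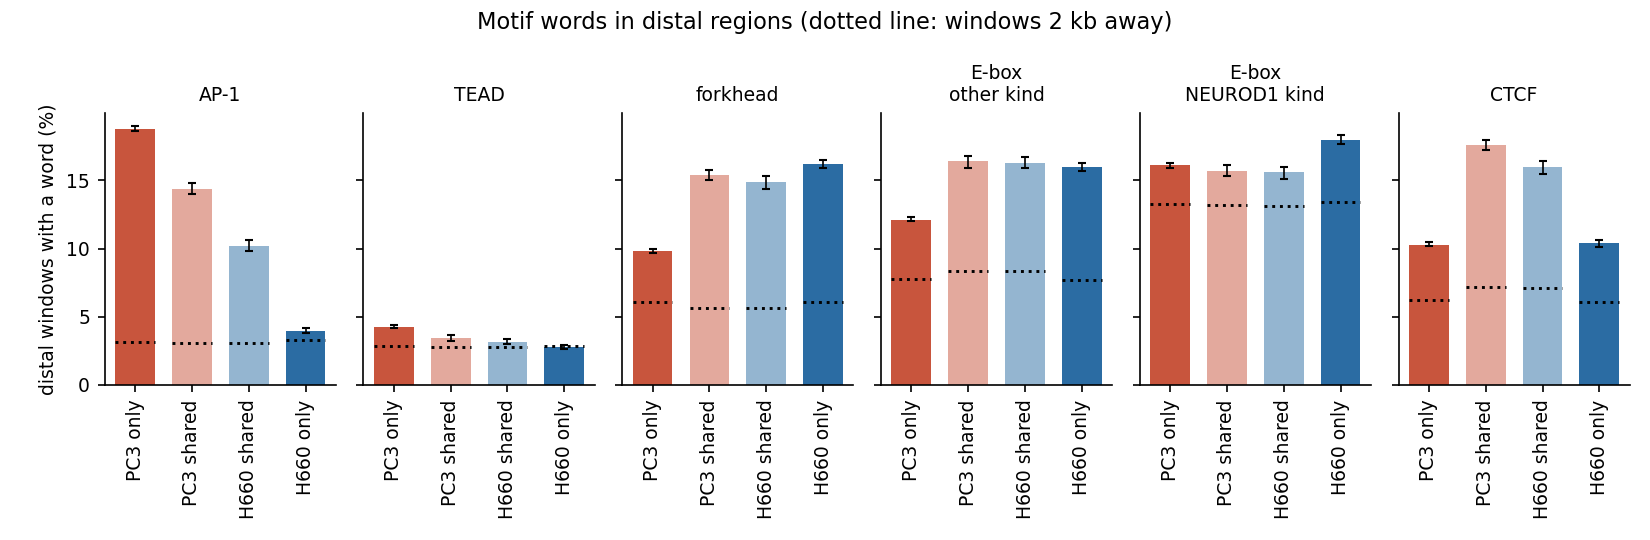
Share of distal regions (%) with a word of each motif within 100 bp of the centre, for PC3-only, shared and NCI-H660-only (H660) regions, with 95% Wilson intervals (the E-box of the other kind is CAGCTG). Dotted lines give the share in windows 2000 bp away, where AP-1 stands at 3.15% for PC3-only regions, whose own bar is at 18.8%.

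The AP-1 share of PC3-only distal regions rose with score and that of NCI-H660-only ones did not. In the top decile of the PC3 list 40.9% of PC3-only distal regions held TGACTCA, in decile 5 25.2% and in the bottom decile 4.88%. The 10 NCI-H660 deciles ranged from 3.54% to 4.44%. Forkhead words stayed between 12.5% and 13% over the first 5 deciles of PC3 and fell to 5.79% in the last, near the 6.07% of the DNA around. In NCI-H660 they lay between 16.0% and 17.6% in 9 of the deciles and at 13% in the last. With the 99959 highest scores of each line the AP-1 shares were 30.7% and 4.33% and the forkhead shares 12.8% and 16.3%.

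**Figure D4:**
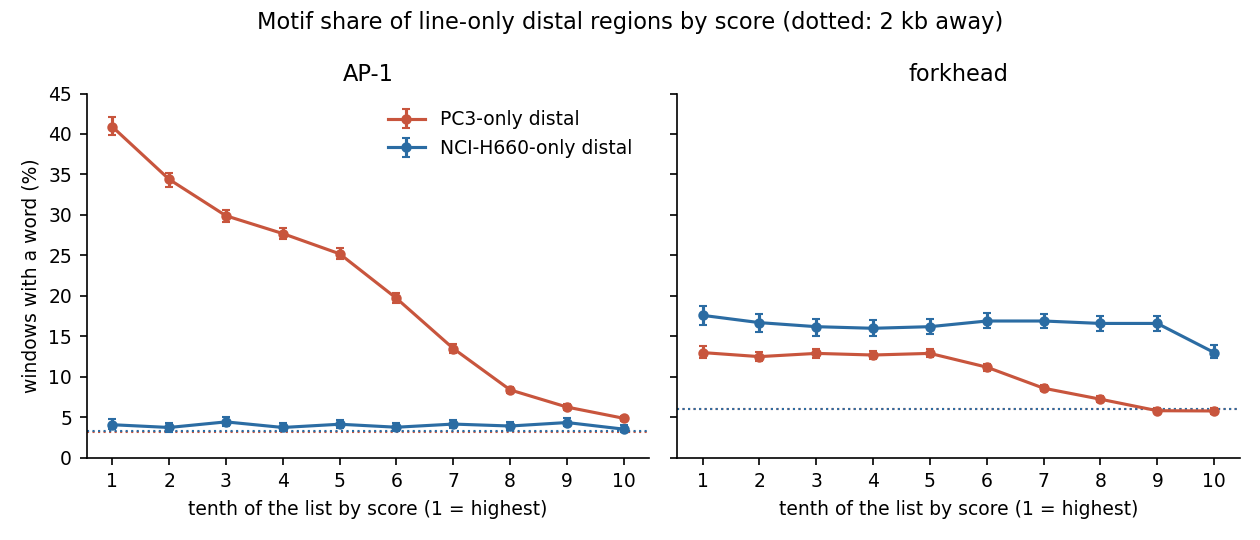
Share of line-only distal windows (%) with an AP-1 word (left) or a forkhead word (right) for each decile of the PC3 and NCI-H660 lists by score, 1 being the highest, with 95% Wilson intervals. Dotted lines are the shares 2000 bp away. AP-1 falls from 40.9% to 4.88% in PC3 and stays near 4% in NCI-H660.

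A recurrent sequence made up part of the forkhead share. The 15 bases GCTTTGTTTACCTAA, a forkhead word with 4 bases on either side, occurred in 1871 distal windows, 699 of them NCI-H660-only, 517 shared in NCI-H660, 599 shared in PC3 and 56 PC3-only. In all, 6 such contexts occurred in at least 100 distal windows each, and they accounted for 10.0% of the NCI-H660-only and 3.24% of the PC3-only distal windows with a forkhead word. Without them the shares were 9.52% (9.37 to 9.66) in PC3 and 14.5% (14.3 to 14.8) in NCI-H660, a difference of -5.03 percentage points (-5.36 to -4.70) in place of -6.33. The windows concerned were rich in GC (median 58.2% in NCI-H660-only regions), and of windows with at least 55% GC 15.7% of NCI-H660-only ones held a forkhead word with these contexts and 7.26% without. For AP-1 only 2 contexts were this frequent, in 0.651% of PC3-only windows with the word.

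Each histone mark was more frequent on the line-only regions of the line in which it was mapped than on those of the other line. H3K27ac, an acetylation of active enhancers and promoters, was measured in PC3 only, and its list overlapped 22.9% (22.7 to 23.1) of PC3-only distal regions, 45.9% (45.3 to 46.4) of shared distal regions and 88.5% of shared promoter regions, against 2.36% (2.24 to 2.49) of NCI-H660-only distal regions. H3K4me2, a methylation of enhancers and promoters that the demethylase LSD1 removes, was measured in NCI-H660 only and overlapped 41.8% (41.4 to 42.2) of NCI-H660-only distal regions, 56.7% of shared distal regions and 95.4% of shared promoter regions, against 1.25% (1.19 to 1.30) of PC3-only distal regions. The marks differ between the lines, so 22.9% and 41.8% are not a comparison of the lines. Within a line the share rose with score: H3K27ac met 84.7% of PC3-only distal regions in the top decile and 2.28% in the bottom decile, and H3K4me2 88.6% and 12.1% of NCI-H660-only ones.

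FOXA2 and JUN overlapped line-only distal regions of the line in which they were mapped more often than those of the other line, and shared distal regions more often still. The FOXA2 list of PC3 overlapped 9.96% (9.82 to 10.1) of PC3-only and 0.375% (0.328 to 0.429) of NCI-H660-only distal regions, and the FOXA2 list of NCI-H660 overlapped 11.1% (10.8 to 11.3) of NCI-H660-only and 0.218% (0.196 to 0.242) of PC3-only ones. JUN gave 10.3% and 0.0982% for the PC3 list and 10.9% and 0.405% for the NCI-H660 list. On shared distal regions the shares were 16.3% for FOXA2 and 15.4% for JUN in PC3, and 14.1% for FOXA2 and 19.5% to 20.5% (the interval) for JUN in NCI-H660. Of PC3-only distal regions with an AP-1 word 24.9% (24.4 to 25.4) overlapped JUN in PC3, against 6.96% (6.82 to 7.10) of those without. In NCI-H660 the shares were 20.6% and 10.5% (10.3 to 10.8), and 460 windows with the word overlapped JUN against 5670 without it. A forkhead word went with FOXA2 overlap in both lines, 27% against 8.11% in PC3 and 20.2% against 9.32% in NCI-H660. The JUN lists came from cells with a control siRNA and not from the vehicle samples.

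The highest scores included regions that resemble mitochondrial DNA. The highest-scoring PC3-only distal region, chr2:149639295-149639426 in an intron of KIF5C, scored 58655 over 132 bp and overlapped none of the mark or factor lists, and 77.9% of its 20-base words also occur in the mitochondrial genome of the same reference. The highest with a forkhead word, chr7:45291571-45291726, intergenic and nearest to RAMP3, scored 48122 over 156 bp with 54.0% of such words. Among the 25 highest-scoring regions of each whole list 12 in PC3 and 16 in NCI-H660 held at least 1 mitochondrial word. Over the lists only 61 and 36 regions did, too few to move the shares above. The highest-scoring PC3-only promoter region, with no such word, was that of SH3TC2 (score 10131), and it overlapped H3K27ac, FOXA2, JUN and FOSL1 in PC3.

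In NCI-H660 many of the highest scores lay on chromosome 8, in the whole list as well as among line-only regions. Of the whole list 54 of the 100 highest-scoring regions and 229 of the highest 500 were there. Of the 100 highest-scoring NCI-H660-only distal regions 57 were on chromosome 8, as were 135 of the highest 500 and 3427 of all 56015. They included regions in an intron of NECAB1 (score 6438, the highest) and near RALYL, and the highest NCI-H660-only promoter region, that of NDRG1 (score 6240), also lay there. The median score of NCI-H660-only distal regions on chromosome 8 was 186, below the 208 of all, so the excess was one of high scores. In PC3 82 of the 500 highest line-only distal regions were on chromosome 10, 68 on chromosome 8 and 49 on chromosome 14, of 9347, 10733 and 7533 in all. Of these 500 PC3 regions 448 overlapped JUN and 267 FOXA2, and of the 500 in NCI-H660 430 overlapped JUN and 312 FOXA2.

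By nearest TSS the genes with the most PC3-only regions were LRMDA (267), PCDH15 (260), CSMD3 (244), TPTE (242), ANKRD30A (236), KHDRBS3 (222), PARD3 (217), LRRTM3 (215), FAM135B (206) and KCNMA1 (202), 6 on chromosome 10 and 3 on chromosome 8. The length of DNA nearest to these genes ran from 1065 kb for KCNMA1, a potassium channel, to 12868 kb for TPTE, and the number of PC3-only regions per 100 kb from 1.88 at TPTE to 21.3 at LRMDA. At equal numbers KCNMA1, the cadherin PCDH15 and CSMD3 stayed among the highest 10, with 78, 81 and 77 PC3-only regions, and were joined by LRRC4C, ADGRL3, CADM2, TRPS1, CNTNAP2, REEP3 and ROBO2. CSMD3 had 92 NCI-H660-only regions at equal numbers, more than its 77 in PC3, and LRMDA had 62 against 53, so a high count in PC3 did not make either gene particular to PC3. ANKRD30A had 236 PC3-only regions and 2 regions in NCI-H660, both shared.

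The highest counts of NCI-H660-only regions were at CELF4 (109), an RNA-binding protein of neurons, AUTS2 (97), NRXN3 (88), a synaptic adhesion protein, TMEM121 (86), GPC5 (85), TENM4 (78), FLRT2 (76), CSMD3 (75), CADM1 (72) and PTPRD (70). At equal numbers 8 of these 10 stayed among the highest, and RALYL and EPHA7 came in. AUTS2 then had 100 NCI-H660-only and 2 PC3-only regions, TMEM121 95 and 3, and CADM1, a cell adhesion gene, 73 and 0. Over the full lists there were 45 PC3-only regions at AUTS2, 51 at TMEM121 and 22 at CADM1, against 97, 86 and 72 NCI-H660-only ones. Counted by gene body at equal numbers, TMEM121 had 1 NCI-H660-only region, CELF4 26 and AUTS2 76. For CADM1, 42 of its 72 NCI-H660-only regions overlapped H3K4me2, and none of its 22 PC3-only regions overlapped H3K27ac. GPC5, TENM4 and FLRT2 had many line-only regions in both lines (93 and 39, 88 and 62, 79 and 36 at equal numbers).

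Of 20163 protein-coding genes 13821 had a promoter region in both lines, 1548 in PC3 only (7.68%) and 973 in NCI-H660 only (4.83%). This order turned at equal numbers, where 679 genes had a promoter region in PC3 only and 1869 in NCI-H660 only, so the lists do not say in which line more promoters were open. Among genes with a promoter region in PC3 only, ANKRD30A, RP11-685N3.1 (176 PC3-only regions), GSDMC (155), PPIAL4G (153) and MBL2 (143) had the most PC3-only regions. The promoter regions of ANKRD30A, RP11-685N3.1 and PPIAL4G scored 103, 38 and 32, and at equal numbers these genes had one in neither line. The DNA nearest to PPIAL4G ran to 11537 kb. Among genes with a promoter region in NCI-H660 only, the most NCI-H660-only regions were at FAT3 (51), NXPH1 (50), the glutamate receptor GRIK3 (49), TCERG1L (44) and the transporter SLCO3A1 (42). GRIK3, TCERG1L and SLCO3A1 had 6, 18 and 10 PC3-only regions in the full list and 0 each at equal numbers, and 28, 26 and 21 of their NCI-H660-only regions overlapped H3K4me2.

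To compare genes by their distal regions, a gene was called for a line where it had at least 5 line-only distal regions at equal numbers and at least 4 times as many as in the other line (1 added to both). The rule called 651 genes for PC3 (3.23%) and 676 for NCI-H660 (3.35%). Of the 973 genes with a promoter region in NCI-H660 only, 134 (13.8%) were called for NCI-H660 and 9 for PC3, and of the 1548 with one in PC3 only, 113 (7.30%) were called for PC3 and 27 for NCI-H660.

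Of 20 neuroendocrine transcription factors 14 had a promoter region in both lines and 2 in neither. NEUROD1, NEUROD2 and NKX2-1 had one in NCI-H660 only, 15% of the list against 4.83% of all genes. ISL1 had one in PC3 only, 5% against 7.68%. The distal rule called 3 for NCI-H660, namely NKX2-1, NKX2-2 and PROX1, and none for PC3, against 3.35% and 3.23% of all genes. The median number of line-only distal regions at equal numbers was 5 in NCI-H660 and 2 in PC3, against 1 in each line over all genes. NKX2-1, a homeobox factor of lung and neuroendocrine tumours, had 20 NCI-H660-only and 0 PC3-only distal regions at equal numbers, and PROX1 had 32 and 5. Over the full lists NKX2-1 had 15 and 11, NKX2-2 8 and 8, and PROX1 27 and 47, so the order turned at PROX1 and was level at NKX2-2. Scores order regions within a list and are on no common scale between the lists. The rank of the best promoter region was therefore divided by the length of its own list. By this measure it stood higher in PC3 for 16 of 17 housekeeping genes, so a higher PC3 rank by itself sets no gene apart. The measure depends on list length: ACTB was in the top 9.82% in PC3 and 17.8% in NCI-H660, but at ranks 20709 and 17804. Genes said below to rank higher in a line were compared by this divided rank. Of the 14 neuroendocrine factors with a promoter region in both lines 8 ranked higher in PC3 and 6 in NCI-H660. PROX1 was among the 8, in the top 5.38% of the PC3 list and 12.6% of the NCI-H660 list. INSM1, a zinc finger factor of neuroendocrine cells, was among the 6. Its PC3 promoter region scored 43 (rank 158693) and its best NCI-H660 one 749 (rank 20547). At equal numbers it therefore had a promoter region in NCI-H660 only, as did 9.27% of all genes. ISL1, with a PC3 promoter region scoring 1254 and none in NCI-H660, went the other way, although 25 NCI-H660-only distal regions lay near it at equal numbers against 12 in PC3.

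Of 24 neuroendocrine secretory and surface genes 7 had a promoter region in NCI-H660 only (29.2% against 4.83% of all genes), 2 in PC3 only (8.33% against 7.68%) and 15 in both. The 7 were CHGA, which encodes the granule protein chromogranin A, the prohormone convertases PCSK1 and PCSK2, CALCA, CEACAM5, ELAVL4 and UCHL1, with promoter scores from 197 at ELAVL4 to 756 at UCHL1. Of the 15 genes with a promoter region in both lines 9 ranked higher within the PC3 list and 6 within the NCI-H660 list. GRP, NCAM1, SCG3, SEZ6 and SYT4 were among the 6, with scores of 26, 112, 121, 130 and 94 in PC3 and 531, 1022, 817, 727 and 921 in NCI-H660. ELAVL3, ENO2, SYT1, SCG2, CHGB and SYP (synaptophysin) were among the 9, with ELAVL3 in the top 0.962% of the PC3 list and the top 22.5% of the NCI-H660 list. CHGB was among them by the divided rank only, since its undivided rank was 26802 in PC3 and 21343 in NCI-H660. The distal rule called 6 for NCI-H660, ELAVL4, NCAM1, PCSK2, SEZ6, SNAP25 and SST, and none for PC3. Over all genes it called 3.35% and 3.23%. NCAM1 (CD56, an adhesion molecule) had 29 NCI-H660-only and 0 PC3-only distal regions at equal numbers, and 15 of its 30 NCI-H660-only regions over the full lists overlapped H3K4me2. Over the full lists NCAM1 had 27 NCI-H660-only and 11 PC3-only distal regions. SST, somatostatin, had a promoter region in PC3 only (score 211), while 8 distal regions near it were NCI-H660-only at equal numbers, 1 of them shown above. The full lists turned this order, with 7 NCI-H660-only and 18 PC3-only distal regions near SST. They also turned it at PCSK2, with 15 and 18. SEZ6 had 5 in each line, SNAP25 had 7 and 6, and ELAVL4 had 13 and 6.

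**Figure D5:**
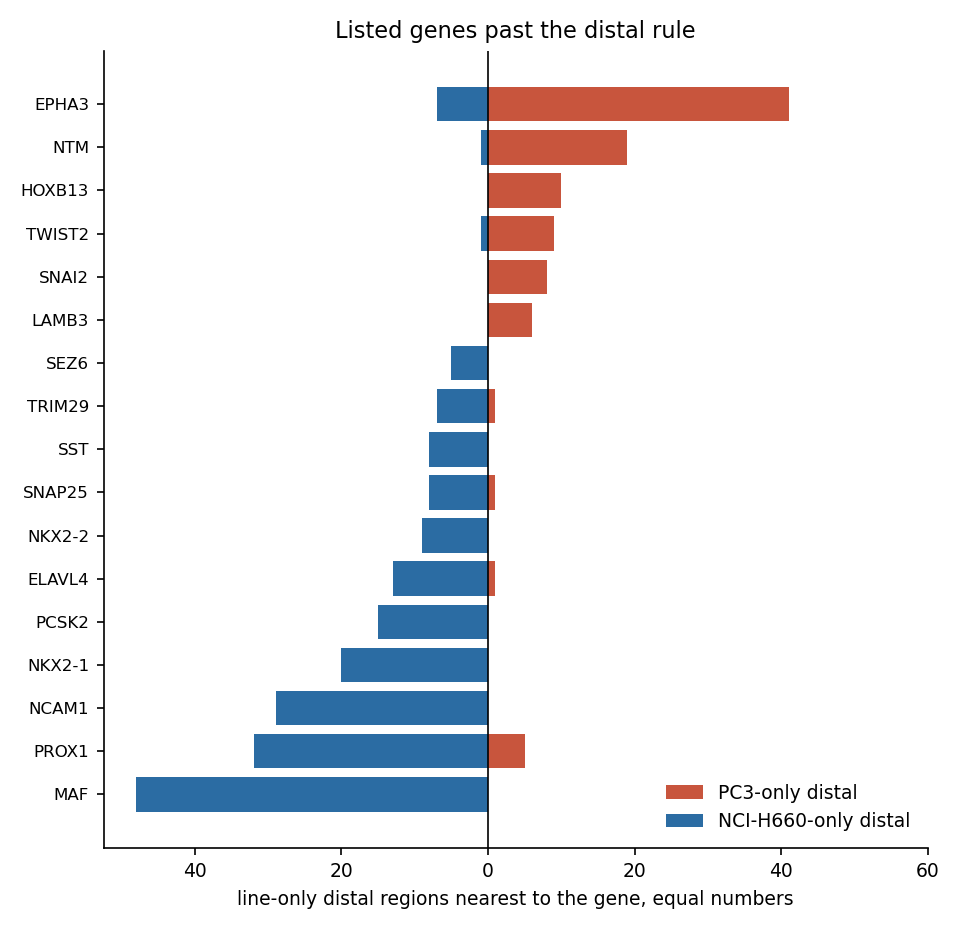
Number of line-only distal regions nearest to each gene at equal numbers, NCI-H660-only to the left and PC3-only to the right, for 17 of the 20 listed genes that the distal rule called. MAF has 48 in NCI-H660 and 0 in PC3, and EPHA3 has 41 in PC3 and 7 in NCI-H660.

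Of 21 mesenchymal transition genes 19 had a promoter region in both lines, 2 in PC3 only (ANXA1 and TWIST2, 9.52% against 7.68% of all genes) and none in NCI-H660 only. At equal numbers TWIST2, with a promoter score of 53, had a promoter region in neither line. The distal rule, which called 3.23% of all genes for PC3, called 3 of this list for PC3, SNAI2 and TWIST2 among them. SNAI2, which encodes the transcription factor SLUG, had 8 PC3-only and 0 NCI-H660-only distal regions at equal numbers. Of the 19 promoters open in both lines 17 ranked higher within the PC3 list, a share near that of the housekeeping genes. CDH2, which encodes N-cadherin, was among the 2 that ranked higher in NCI-H660, in its top 1.60% against the top 13.3% in PC3. The basal and stem-like list was balanced between the lines. A promoter region lay in PC3 only at 11.1% of its genes and in NCI-H660 only at 11.1%, against 7.68% and 4.83% of all genes. Among 18 basal and stem-like epithelial genes KRT5 and KRT17 had a promoter region in PC3 only with scores of 44 and 59, TP63 and COL17A1 had one in NCI-H660 only, and that of TP63, the basal cell factor, scored 2093. At equal numbers KRT5 and KRT17 had a promoter region in neither line. LAMB3 was called for PC3 (6 and 0 distal regions) and TRIM29 for NCI-H660 (7 and 1). Over the full lists LAMB3 had 12 PC3-only and 0 NCI-H660-only distal regions, and TRIM29 had 17 and 5, the reverse of its order at equal numbers.

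In the list of AP-1 and MAF genes the largest difference among the genes named here lay in NCI-H660 and at MAF, which is not of the JUN or FOS family. Of 16 AP-1 and MAF genes 14 had a promoter region in both lines and 2 in NCI-H660 only, BATF among them (12.5% against 4.83% of all genes). The distal rule called 2 for NCI-H660, MAF among them, and none for PC3, against 3.35% and 3.23% of all genes. MAF had 48 NCI-H660-only and 0 PC3-only distal regions at equal numbers, with 8 regions of any class in PC3 over the full lists against 50 in NCI-H660, and 27 of its NCI-H660-only regions overlapped H3K4me2. JUN, FOS and FOSL1 had a promoter region in both lines, and of the 14 such genes 12 ranked higher within the PC3 list. Of 13 YAP and TEAD pathway genes 12 had one in both and TEAD2 in PC3 only (score 3573, 7.69% of the list against 7.68% of all genes). None was called by distal regions.

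Of 16 luminal prostate genes 12 had a promoter region in both lines, KLK2, KLK4 and TRPM8 in PC3 only with scores of 65, 168 and 39, and KLK3, which encodes PSA, in neither. Those in PC3 only were 18.8% of the list, against 7.68% of all genes. At equal numbers KLK2 and TRPM8 had a promoter region in neither line. HOXB13, a homeobox factor of the prostate, had 10 PC3-only and 0 NCI-H660-only distal regions at equal numbers, and its promoter scored 1123 in PC3 and 110 in NCI-H660. Of 14 epithelial genes 13 had a promoter region in both lines and OVOL2 in NCI-H660 only (score 1665, 7.14% of the list against 4.83% of all genes). Of the 13 in both 9 ranked higher within the NCI-H660 list and 4 within the PC3 list. GRHL2, ESRP1 and CDH1 were among the 9, with scores of 77, 56 and 80 in PC3 and 3536, 2082 and 404 in NCI-H660. The 4 were GRHL1, KLF5, KRT19 and ESRP2, with GRHL1 in the top 4.44% of the PC3 list and the top 27.5% of the NCI-H660 list.

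Among 22 neural adhesion and axon guidance genes the direction was mixed. The median number of line-only distal regions at equal numbers was 26.0 in PC3 and 12.5 in NCI-H660, against 1 in each line over all genes. DSCAM, PLXNA4 and UNC5D had a promoter region in NCI-H660 only, 13.6% of the list against 4.83% of all genes. OPCML had one in PC3 only (score 32) and in neither line at equal numbers, and NTM had one in neither. The distal rule called EPHA3 (41 and 7) and NTM (19 and 1) for PC3 and none for NCI-H660, against 3.23% and 3.35% of all genes. NTM and OPCML adjoin on chromosome 11, where the window chr11:131000001-132000000 held 55 PC3 regions and 0 in NCI-H660. In the control lists all 17 housekeeping genes had a promoter region in both lines, and 11 of 13 blood cell genes, PTPRC, CD3E, SPI1 and HBB among them, had none in either. Of 9 hepatocyte genes 4 had a promoter region in PC3 only (APOB, CYP3A4, F2 and SERPINA1), with scores from 53 to 198, and ALB and APOA1 had none. Of 11 endothelial and fibroblast genes found in the annotation CDH5 had one in NCI-H660 only and DCN, PDGFRA and PDGFRB in PC3 only. The PC3-only share was 44.4% of the hepatocyte list and 27.3% of the endothelial and fibroblast list, against 7.68% of all genes. At equal numbers APOB, CYP3A4, DCN and PDGFRB had a promoter region in neither line.

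Region numbers also differed by stretches of chromosome. Over 2910 windows of 1 Mb the median number of regions was 63.0 in PC3 and 33.0 in NCI-H660. The ratio of PC3 to NCI-H660 regions ran from 1.48 on chromosome 6 to 3.30 on chromosome 21. In chr10:36000001-38000000, which holds ANKRD30A, the 2 windows had 220 and 210 PC3 regions and 2 and 2 in NCI-H660. Of the windows in which NCI-H660 had no region 19 had at least 10 in PC3, among them 3 in a row at chr21:23000001-26000000, and the reverse held for 1, chr16:26000001-27000000, with 25 NCI-H660 regions. The 147 densest PC3 windows, those with at least 156 regions, lay mostly on chromosomes 10 (24), 8 (22), 14 (19) and 17 (18) and held 12.3% of PC3-only distal regions, with a median score of 58.0 against 85.0 elsewhere, an AP-1 share of 13.4% against 19.6% and an H3K27ac share of 21.1% against 23.2%. The part of these stretches in the counts of genes above was not tested beyond the alternatives given in the closing section.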

How the data were processed

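The authors aligned reads to hg19 with bwa 0.7.17-r1188, handled them with SAMtools 1.9 after FastQC 0.11.9 and called peaks with MACS2 2.1.4, per the labels and the submitters' processing notes. The deposited lists give a score for each region in column 5, which the authors' peak caller wrote. Read numbers, caller settings, the control, pooling of replicates and the shifting of ATAC reads are not given in the sources used here. For the ATAC samples the labels repeat a ChIP protocol (crosslinking and sonication), whereas the study describes transposase libraries.

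The members and gene lists were chosen with earlier results of these data known. Regions were compared by 1 bp overlap and assigned to the nearest of 78703 protein-coding TSSs of 20163 genes (GENCODE release 44 mapped to GRCh37). Each window of 100 bp either side of a centre was scanned for motif words on both strands, with the same done in windows 2000 bp away as a background. The equal-number comparison kept the 99959 highest scores of each line. Named genes were the 10 with the most line-only regions in each line, the 5 with a promoter region in 1 line only, and the members of 13 lists called by promoter or distal regions. Other listed genes, and the regions of listed genes whose sequence is shown, were chosen after their values were seen. Results of some listed genes are not reported here. No test was possible with 1 list a line. Scripts (Python 3.11.15, numpy 2.4.6, pandas 2.3.3, scipy 1.17.1, pysam 0.24.0) were tested on simulated data.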

Additional observations from a re-analysis of the deposited data

How the results depend on the processing

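No paired analysis was possible because each line has 1 list and no replicate numbers. No alternative turned the sign of the AP-1 or the forkhead difference, but most moved its size, and the order of the lines in shared share turned at equal numbers. With equal numbers of top scores the shared share was 34.0% in PC3 and 32.2% in NCI-H660, with scores of at least 100 28.2% and 38.1%, with 50% reciprocal overlap 11.7% and 24.8%, and with regions of 200 to 400 bp 5.50% and 13.9%. In the same order the AP-1 difference was 26.4, 25, 13.8 and 18.0 points and the forkhead difference -3.47, -4.05, -5.62 and -5.64 points. For 200 to 400 bp the shares compared regions of this width in both lists, while the differences took regions of this width that were line-only against the full list. With the top 49979 regions of each line against the other full list the differences were 31.5 and -3.58, and with motif windows of 250 bp 16.4 and -11.0. All 8 forkhead words gave -11.6. H3K27ac on PC3-only distal regions was 47.2% at equal numbers, 43.8% at scores of at least 100, 23.9% with reciprocal overlap, 69.1% in the top 49979 and 13.9% at the centre base, and H3K4me2 on NCI-H660-only ones 43.6%, 54.3%, 45.7%, 66.9% and 31.5%. Of all genes 3.37% (679) had a promoter region in PC3 only at equal numbers and 4.96% at scores of at least 100, and 9.27% (1869) and 6.97% (1406) in NCI-H660 only, so the order of the lines turned in both. Of the 10 genes with the most line-only regions 3 in PC3 and 8 in NCI-H660 stayed at equal numbers, and 4 and 3 when regions were counted over gene bodies. The settings of 200 to 400 bp and of the centre base were chosen after seeing the data. Other alternatives chosen in this way gave an AP-1 difference of 15.6 and an H3K27ac share of 23.2% without the densest PC3 windows, and a forkhead difference of -5.03 without recurrent contexts. In all, 40 values moved past their counting interval (for counts, by over 1.5 times) and 18 did not. The cause was not tested. The lists carry no read numbers, so a region listed in 1 line may be present below the calling threshold in the other.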

Other observations

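FOSL1, mapped in PC3 only, overlapped 1.02% (0.974 to 1.07) of PC3-only, 3.86% (3.64 to 4.08) of shared and 0.0821% of NCI-H660-only distal regions. CCGGAAGT, a word of ETS factors, lay in 3.34% of shared PC3 and 3.32% of shared NCI-H660 promoter regions and in 0.295% and 0.512% of line-only ones. Forkhead words were less frequent in shared promoter regions (3.42% in PC3) than in PC3-only (6.55%) or NCI-H660-only (8.26%) promoter regions. FOXA2 in PC3 overlapped 14.6% of PC3-only distal windows with an AP-1 word and 8.89% of those without, and in NCI-H660 the shares were 11.8% (10.5 to 13.2) and 11.1%.

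By gene body, AUTS2 and the transcription activator CAMTA1 had 76 and 69 NCI-H660-only regions at equal numbers and 2 and 8 PC3-only ones, and ASTN2, a neuronal migration gene, had 61 and 1. CTNNA3 and ZFPM2 went the other way, with 77 and 76 PC3-only and 14 and 16 NCI-H660-only regions. In the 146 densest NCI-H660 windows H3K4me2 overlapped 51.8% of NCI-H660-only distal regions against 40.7% elsewhere, with AP-1 words in 3.43% against 4.05% and forkhead words in 12.5% against 16.5%.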
